A study of Mus musculus with 10 samples.

Results

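The 33 genes described here encode the transporters, enzymes and regulators of glycolysis and the core of the transcriptional response to low oxygen. They were taken by gene symbol, and all 33 were found among the 47643 genes listed for each library. RNA had been sequenced from innate lymphoid cells (ILCs), tissue lymphocytes without rearranged antigen receptors, sorted from adult B6 mouse skin. The 10 libraries fall into 4 groups, with 3 of epidermal ILCs, 2 of dermal ILCs sorted as CCR6+, 2 of dermal ILCs sorted as Sca1+ and 3 of subcutaneous ILCs. CCR6 is the receptor for the chemokine CCL20, and Sca1 is the product of Ly6a. The labels name no treatment and no mutant allele. Whether the replicates are different mice is not stated in them. A p-value here sets a group difference against the spread of these libraries only, part of which may be technical.

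Glycolysis splits glucose into pyruvate in the cytosol, and lactate dehydrogenase turns pyruvate into lactate, which monocarboxylate transporters carry across the membrane. When oxygen falls, prolyl hydroxylases of the EGLN family no longer mark the transcription factor subunit HIF-1α for degradation, and HIF raises transcription of many glycolytic genes, of EGLN3 itself and of genes for mitophagy, blood vessel growth and collagen modification. Activated lymphocytes and several ILC subsets use glycolysis heavily, and intact epidermis and parts of the dermis are physiologically low in oxygen.

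Levels are given as TPM, the deposited transcript abundance corrected for effective gene length, which is the only scale used here to set one gene against another. Expected counts summed to between 11627222 and 18118544 per library. All 33 genes passed the filter on low counts, among the 16208 genes that did. Their TPM summed to 8341 to 11965 in epidermal, 11977 and 14128 in dermal CCR6+, 11196 and 10662 in dermal Sca1+ and 7948 to 8058 in subcutaneous libraries. The highest group mean was that of dermal CCR6+ ILCs for 17 genes, epidermal ILCs for 8, subcutaneous ILCs for 7 and dermal Sca1+ ILCs for 1, Ldha. The lowest group mean was that of subcutaneous ILCs for 17 genes and of epidermal ILCs for 10.

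**Figure D1:**
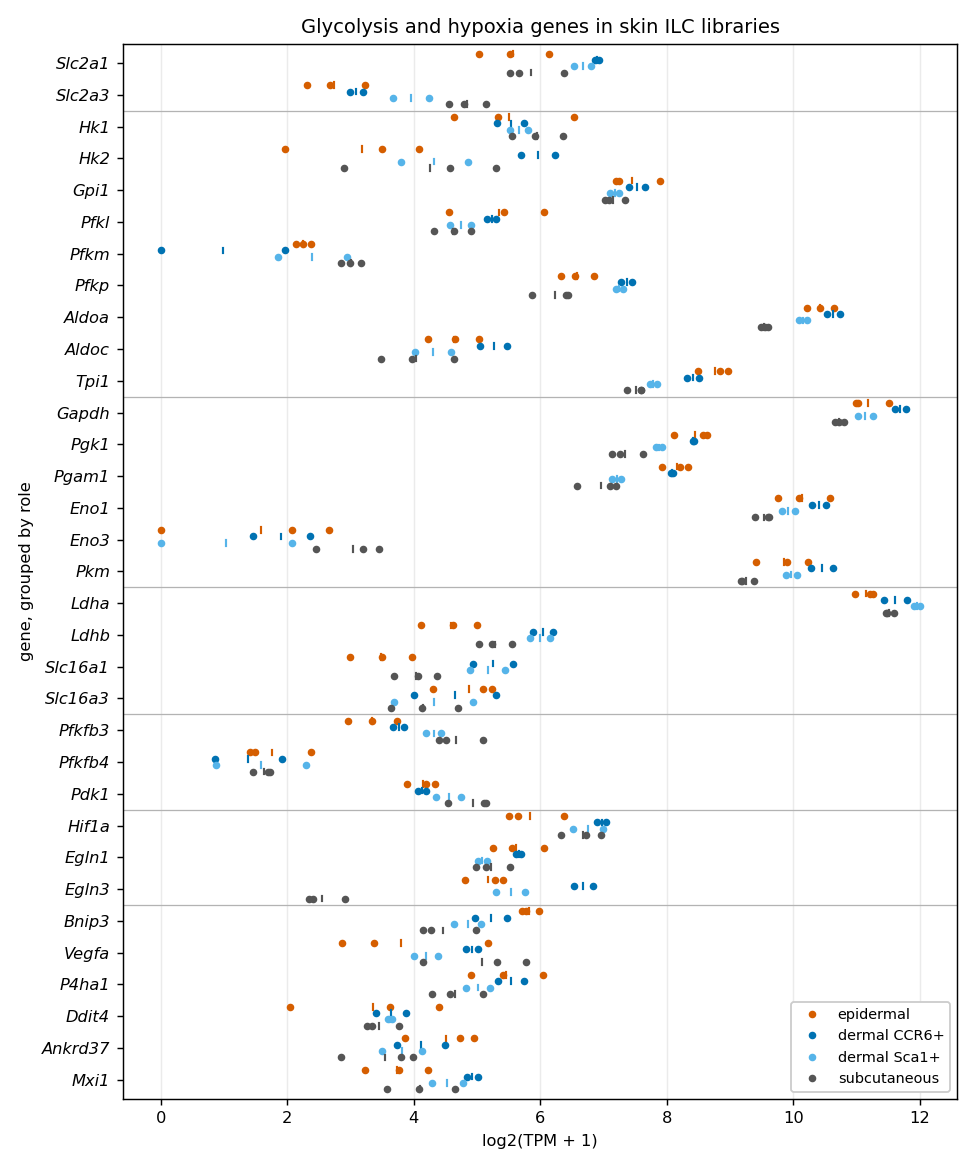
Levels of the 33 genes on the log2(TPM + 1) scale, with genes on the vertical axis in order of their role and horizontal rules between roles. Each point is 1 library, coloured by group, and each short vertical bar is the group mean of the log2 values; the most abundant genes, Ldha and Gapdh, lie to the right, and Pfkm, Eno3 and Pfkfb4 lie near the left edge in every group.

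One library stood apart within its group. Epidermal 1 had the highest TPM of the 3 epidermal libraries for 27 of the 33 genes, and epidermal 2 had the lowest for 28. Subcutaneous 1 had the highest TPM in its group for 17 of the 33 genes. The deposited numbers of epidermal 1 and subcutaneous 1 lie apart from those of all other libraries. No dermal library lies with them, and whether the numbers mark a batch was not tested. The summed TPM of 12 keratinocyte markers was 5062 in epidermal 1 against 18740 and 19125 in epidermal 2 and 3. Other cell types' markers also moved with the groups. The keratinocyte sum was 1951 and 2243 in dermal CCR6+, 2076 and 2156 in dermal Sca1+ and 87.8 to 209 in subcutaneous libraries, with 11 or 12 of the 12 markers above 0 in every group and Lor at 0 in the dermal CCR6+ group. The sum of 10 macrophage and dendritic cell markers was 1.49 to 6.26 in epidermal libraries (8 of 10 above 0, with Mrc1 and Itgax at 0), 204 to 734 in the dermal ones and 4057 to 7578 in subcutaneous libraries (9 of 10 above 0, with Cd207 at 0). Fibroblast markers (8 genes) summed to 4.89 to 17.1 in epidermal libraries, with Pdgfra at 0, and to 679 to 2036 in the others, with none at 0. Erythroid markers (5 genes, of which 5, 4, 2 and 5 were above 0 in epidermal, dermal CCR6+, dermal Sca1+ and subcutaneous groups) summed to 1424 to 3183 in subcutaneous libraries and at most 651 elsewhere, with Alas2 at 0 in both dermal groups. Glandular epithelium markers (7 genes) summed to 1430 to 4419 in subcutaneous libraries, with only Wap at 0, and to at most 46.0 elsewhere, with 3 or 4 of 7 above 0. The 9 ILC identity genes were above 0 in every group, with sums between 5990 and 11550. T cell markers (10 genes) summed to 1752 to 1865 in epidermal (9 of 10 above 0, with Cd8a at 0), 2015 and 2070 in dermal CCR6+ (10 of 10), 1405 and 1429 in dermal Sca1+ (8 of 10, with Cd8a and Cd8b1 at 0) and 1028 to 1468 in subcutaneous libraries (10 of 10). The constant-region genes Trbc1 and Trbc2 made up most of that sum. Cd3g was at 447 to 521 TPM in epidermal libraries and at 704 and 633 in dermal CCR6+ ones. It was at 307 and 203 in dermal Sca1+ and at 158 to 283 in subcutaneous libraries. Trac was also highest in dermal CCR6+ libraries, at 100 and 82.0 TPM, against at most 70.9 elsewhere. Cd3e was at 1.81 to 79.1 TPM and Cd3d at 1.1 to 34.0 TPM, with overlap between groups. The part of these other cells in the differences between groups was not tested, and in bulk RNA fewer cells of a type and less RNA per cell cannot be told apart.

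The promoters of 6 members called in at least 2 comparisons are printed, because their genes carry the pattern described in the next paragraphs. Egln3 had the largest ratio of its highest to its lowest group mean, Hif1a and Slc16a1 had their lowest mean in epidermal ILCs, and Pgk1 and Pgam1 differed from Ldha in their order across groups although all 3 are classical HIF targets. Each line gives the 250 bases before the RefSeq transcription start on GRCm38.p6, 5′ to 3′ on the strand of the gene, with the hypoxia response core in capitals on either strand. The Egln3 window is chr12:54203875-54204124, minus strand. The Hif1a window is chr12:73907617-73907866, plus strand. The Slc16a1 window is chr3:104638414-104638663, plus strand. The Pgk1 window is chrX:106186850-106187099, plus strand. The Pgam1 window is chr19:41911621-41911870, plus strand. The Ldha window is chr7:46845554-46845803, plus strand. None of the 6 windows overlapped an exon of GENCODE M21.
Egln3: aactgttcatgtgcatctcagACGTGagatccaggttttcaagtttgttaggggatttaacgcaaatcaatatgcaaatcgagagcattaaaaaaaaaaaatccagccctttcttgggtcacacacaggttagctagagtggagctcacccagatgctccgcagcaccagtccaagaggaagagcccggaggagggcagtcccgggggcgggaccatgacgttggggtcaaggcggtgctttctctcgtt
Hif1a: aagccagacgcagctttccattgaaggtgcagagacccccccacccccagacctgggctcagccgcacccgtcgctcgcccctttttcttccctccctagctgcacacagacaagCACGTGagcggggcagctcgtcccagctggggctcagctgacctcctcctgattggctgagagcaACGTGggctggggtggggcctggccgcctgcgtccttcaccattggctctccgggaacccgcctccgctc
Slc16a1: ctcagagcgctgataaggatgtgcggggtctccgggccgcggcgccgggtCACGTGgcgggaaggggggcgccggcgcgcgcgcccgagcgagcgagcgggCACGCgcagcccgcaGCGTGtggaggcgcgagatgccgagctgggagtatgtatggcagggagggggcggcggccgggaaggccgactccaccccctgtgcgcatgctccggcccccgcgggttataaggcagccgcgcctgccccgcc
Pgk1: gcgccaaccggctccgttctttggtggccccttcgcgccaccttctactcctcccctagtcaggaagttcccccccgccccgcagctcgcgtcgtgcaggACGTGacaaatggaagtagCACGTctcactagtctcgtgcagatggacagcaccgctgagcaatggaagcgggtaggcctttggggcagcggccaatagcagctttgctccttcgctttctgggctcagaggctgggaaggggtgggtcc
Pgam1: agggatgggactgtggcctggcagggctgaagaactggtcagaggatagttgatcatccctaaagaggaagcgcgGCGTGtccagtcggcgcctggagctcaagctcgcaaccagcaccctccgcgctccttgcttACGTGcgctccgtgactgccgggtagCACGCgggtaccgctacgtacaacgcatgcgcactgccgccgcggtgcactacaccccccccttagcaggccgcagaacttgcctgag
Ldha: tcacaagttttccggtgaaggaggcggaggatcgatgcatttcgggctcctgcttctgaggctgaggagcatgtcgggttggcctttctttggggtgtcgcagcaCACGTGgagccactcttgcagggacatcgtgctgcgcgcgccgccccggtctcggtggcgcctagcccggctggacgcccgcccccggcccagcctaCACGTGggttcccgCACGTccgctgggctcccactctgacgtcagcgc
The first core searched was ACGTG, which appears as CACGT where it lies on the other strand. The second core searched was GCGTG, which likewise appears as CACGC. A run of CACGTG holds the first core on both strands and so counts as 2 matches. The first core was matched once in the Egln3 and Pgam1 windows, 2 times in Slc16a1 and Pgk1, 3 times in Hif1a and 5 times in Ldha, while the second was matched 2 times in Slc16a1 and 2 times in Pgam1. RefSeq windows were at hand for 32 of the 33 genes, all but Slc2a3. Counting a gene once if any of its listed starts held the core, the first core was present for 20 of 32 (62.5%) against 18.5% of 27025 genes, the second for 22 (68.8%) against 30.9%, and either core for 30 (93.8%) against 41.5%. A match of these letters is a description and not a binding site.

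Gene differences were tested with edgeR's quasi-likelihood test on rounded expected counts, with all 10 libraries in 1 model, and a gene was called at a Benjamini-Hochberg adjusted p under 0.05 over the 16208 genes tested. All adjusted p-values in the text come from this test. Between epidermal and subcutaneous ILCs, 6 of the 33 genes were called higher in epidermal ILCs, against 6.87% of all genes tested, and 4 were called lower, against 13.3%. The second of these shares is near that of all genes. The members' median log2 fold change was 0.11, beside -0.02 for all genes. Between dermal CCR6+ and subcutaneous ILCs, 11 genes were called higher in CCR6+ cells, against 3.75% of all genes, and 2 lower, against 3.71%, with a median of 0.73 beside -0.08.

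Against dermal CCR6+ ILCs, epidermal ILCs had no gene called higher, where 0.987% of all genes were called, and 8 called lower, where 5.19% were. At an unadjusted p under 0.05 the counts were 0 higher and 12 lower, and DESeq2 called 0 higher. The median was -0.33 beside 0.00 for all genes. Against dermal Sca1+ ILCs, 2 genes were called higher in epidermal ILCs, against 2.75% of all genes, and 6 lower, against 8.66%. The median was -0.16 beside 0.00. Dermal Sca1+ and subcutaneous ILCs differed in 1 gene called higher, Egln3, against 1.21% of all genes, and none called lower, against 0.993%. For the lower direction, 1 gene had an unadjusted p under 0.05 and DESeq2 called 0. Between the 2 dermal populations none of the 33 genes was called, where 0.296% of all genes were called higher in CCR6+ cells and 0.346% lower. In that comparison 8 genes were higher and 1 lower at an unadjusted p under 0.05, and DESeq2 called 4 higher and 0 lower. Of all 16208 genes DESeq2 called 260 higher and 296 lower there. Counts of 1 or 2 called genes are too small to be a result about the 33 genes. The 6 comparisons share groups, so that their counts are not independent of each other.

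**Figure D2:**
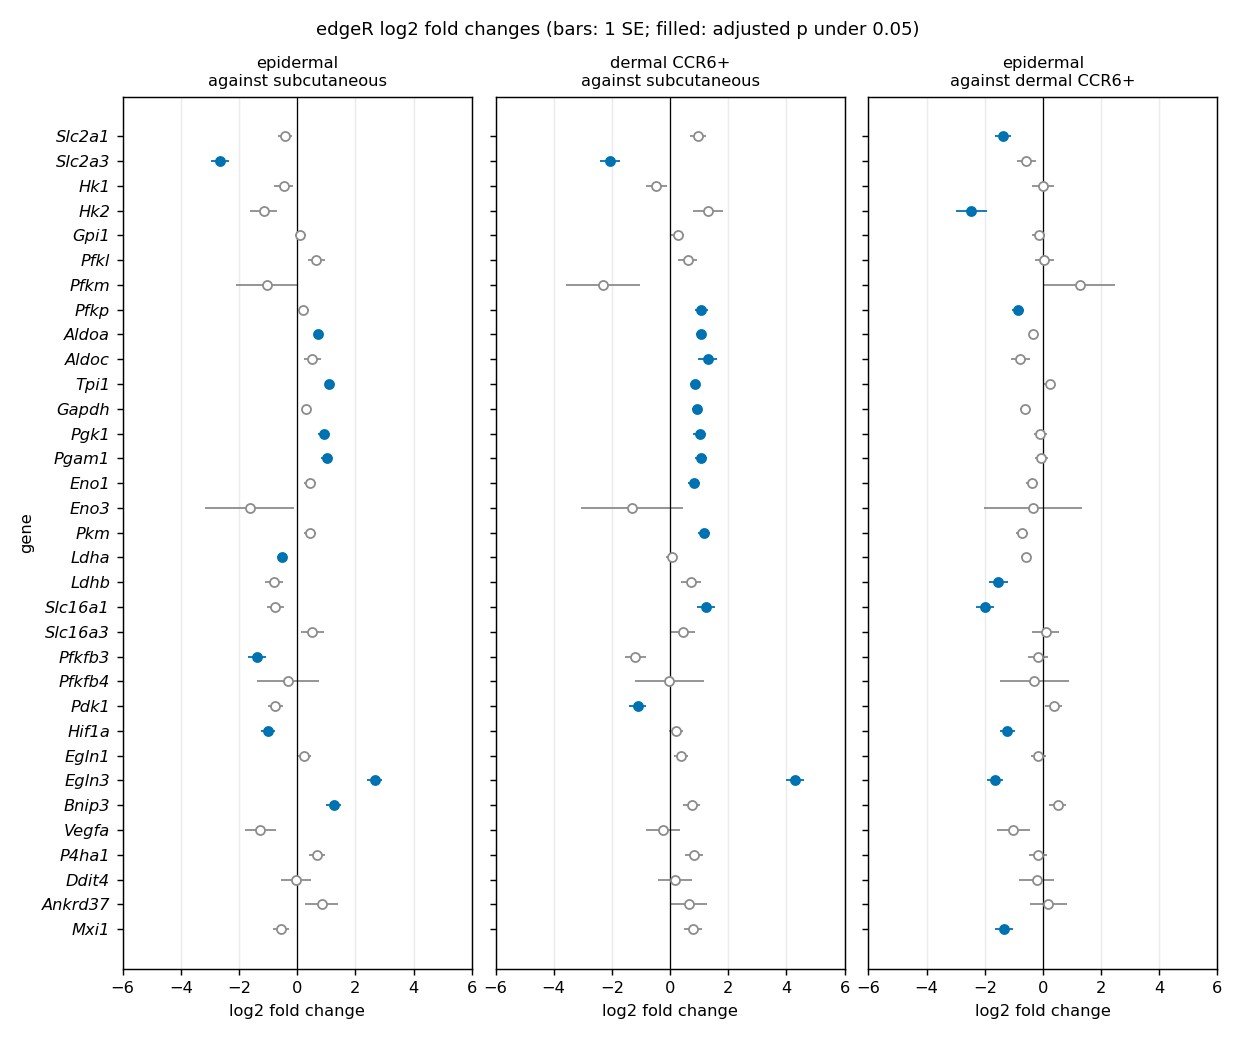
edgeR log2 fold changes (horizontal axis, first group minus second) of the 33 genes (vertical axis) in 3 comparisons, with bars of 1 SE and filled points where the adjusted p was under 0.05. Egln3 lies farthest to the right of all 33 genes in the 2 comparisons with subcutaneous ILCs and Slc2a3 is filled and left of 0 in both, while all 8 filled points of epidermal against dermal CCR6+ ILCs are left of 0.

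Glucose enters lymphocytes through SLC2A1 (GLUT1) and SLC2A3 (GLUT3), a transporter of high glucose affinity, and the balance between their transcripts in subcutaneous libraries stood apart from that in the others. Slc2a3 TPM was 8.38, 3.97 and 5.37 in epidermal, 8.14 and 6.97 in dermal CCR6+, 17.8 and 11.7 in dermal Sca1+ and 34.5, 22.7 and 26.8 in subcutaneous libraries. All subcutaneous libraries were above all others, and the dermal Sca1+ libraries lay between them and the rest. Slc2a3 was lower in epidermal ILCs than in subcutaneous ones by a log2 fold change of -2.64 ± 0.31 (SE; edgeR adjusted p = 0.00019), a call kept in every alternative, and lower in dermal CCR6+ than in subcutaneous ILCs by -2.07 ± 0.35 (adjusted p = 0.0058), the latter call being lost without dermal CCR6+ 2 (adjusted p = 0.077). It was also lower in epidermal than in dermal Sca1+ ILCs (-1.69 ± 0.32, edgeR adjusted p = 0.0067, but 0.079 without dermal Sca1+ 1). Slc2a1 showed another order, with TPM of 69.6, 31.5 and 45.1 in epidermal, 121 and 116 in dermal CCR6+, 111 and 91.8 in dermal Sca1+ and 82.2, 49.6 and 45.1 in subcutaneous libraries. Both dermal groups were above every epidermal library, and epidermal and subcutaneous libraries overlapped. Slc2a1 was lower in epidermal than in dermal CCR6+ ILCs (-1.38 ± 0.28, edgeR adjusted p = 0.014, 0.084 without dermal CCR6+ 1) and lower than in dermal Sca1+ ILCs (-1.18 ± 0.28, adjusted p = 0.02, 0.16 without dermal Sca1+ 1, and 0.056 and 0.059 without epidermal 2 or 3). Slc2a3 made up 10.6% to 11.2% of the summed TPM of the 2 transporters in epidermal libraries, 5.68% and 6.29% in dermal CCR6+, 11.3% and 13.8% in dermal Sca1+ and 29.6% to 37.3% in subcutaneous libraries. No 2 groups overlapped, with the subcutaneous shares highest and the dermal CCR6+ shares lowest, although epidermal and dermal Sca1+ shares nearly met (11.2% and 11.3%).

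Hexokinase, the first and glucose-trapping step, showed a difference in Hk2, the inducible isoenzyme, in 1 comparison. Hk2 TPM was 15.9, 2.92 and 10.3 in epidermal, 74.5 and 50.6 in dermal CCR6+, 27.9 and 13.0 in dermal Sca1+ and 22.7, 38.6 and 6.46 in subcutaneous libraries. Both dermal CCR6+ libraries were above all others, and the other 3 groups overlapped. Epidermal ILCs were lower than dermal CCR6+ ILCs by a log2 fold change of -2.46 ± 0.52 (edgeR adjusted p = 0.018). That call was lost without epidermal 2 or 3 (adjusted p = 0.063 for either) and without dermal CCR6+ 1 (adjusted p = 0.11). Hk1, the constitutive isoenzyme, was called in no comparison, with TPM of 23.8 to 91.6 in epidermal, 38.9 and 52.5 in dermal CCR6+, 44.98 and 54.96 in dermal Sca1+ and 46.0 to 80.8 in subcutaneous libraries. Hk2 made up 49.1% and 65.7% of the summed TPM of Hk1 and Hk2 in dermal CCR6+ libraries and at most 45.6% in any other library.

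The next steps are glucose-6-phosphate isomerase, encoded by Gpi1, and phosphofructokinase, the committed step, which has 3 subunit genes. Gpi1 lay between 129 and 235 TPM in all 10 libraries and was called nowhere. Pfkp, the platelet-type subunit, was the main phosphofructokinase transcript in every library, at 62.3% to 83.3% of the summed TPM of the 3. Its TPM was 115, 92.5 and 79.5 in epidermal, 154 and 174 in dermal CCR6+, 158 and 145 in dermal Sca1+ and 85.9, 83.5 and 57.3 in subcutaneous libraries. All 4 dermal libraries were above all others. Pfkp was higher in dermal CCR6+ ILCs than in subcutaneous ones by 1.08 ± 0.21 on the log2 scale (edgeR adjusted p = 0.012, 0.13 without dermal CCR6+ 2). It was lower in epidermal than in dermal CCR6+ ILCs by -0.87 ± 0.21 (edgeR adjusted p = 0.036), a call that ended on leaving out epidermal 2, epidermal 3, dermal CCR6+ 1 or dermal CCR6+ 2 (adjusted p = 0.085, 0.09, 0.083 and 0.24). Pfkl, the liver-type subunit, lay between 19.1 and 65.5 TPM and Pfkm, the muscle-type subunit, between 0 and 7.96 TPM, and neither was called. All 10 skeletal muscle markers were above 0 in subcutaneous libraries, at a sum of 74.2 to 250 TPM, against 2 of 10 and 6.89 to 14.7 TPM in epidermal libraries, where Acta1, Tnnt3, Tnni2, Myh4, Myh1, Des, Tnnc2 and Mb were at 0, and 7 of 10 and 14.1 to 39.3 TPM in the dermal ones. Their part in the level of the muscle-type isoenzymes was not tested.

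The 7 main genes from aldolase to pyruvate kinase, here called the trunk, all had their lowest group mean in subcutaneous ILCs. Their summed TPM was 8458, 5685 and 6578 in epidermal, 8026 and 9239 in dermal CCR6+, 6353 and 5582 in dermal Sca1+ and 4269, 4264 and 4247 in subcutaneous libraries. Every subcutaneous library was below every other library, and the 3 subcutaneous sums had an SD of 11.7. The T cell marker sum, highest in dermal CCR6+ and then in epidermal libraries, followed the order of the trunk means in these groups, with dermal Sca1+ and subcutaneous libraries overlapping, and its part was not tested. The mean trunk sum was 6907 ± 1416 (SD, n = 3) for epidermal and 8632 ± 858 (SD, n = 2) for dermal CCR6+ ILCs. In the edgeR test 7 of 7 trunk genes were called higher in dermal CCR6+ ILCs than in subcutaneous ones, where 3.75% of all genes were. In epidermal ILCs 4 of 7 were called higher than in subcutaneous ILCs (6.87% of all genes). Against dermal Sca1+ ILCs 2 of 7 were (2.75%), the only members called higher there, and this is no result about the trunk. The trunk is a part of the 33 genes, so these calls are among those counted above. In the other 3 comparisons no trunk gene was called, although 5 were higher in dermal CCR6+ than in dermal Sca1+ ILCs, 2 higher in dermal Sca1+ than in subcutaneous ILCs and 2 lower in epidermal than in dermal CCR6+ ILCs at an unadjusted p under 0.05. DESeq2 called 3, 2 and 2 in these 3 comparisons, in the same directions. Of all 16208 genes it called 260, 484 and 1416 there. The median log2 fold change of the trunk was 1.02 for dermal CCR6+ and 0.73 for epidermal ILCs against subcutaneous ILCs, beside -0.08 and -0.02 for all genes. The trunk was set apart with earlier results known, so its counts and medians are a description and no separate test. Of all 9 enzyme genes from Hk1 to Tpi1, 4 were called higher in dermal CCR6+ and 2 in epidermal than in subcutaneous ILCs. Of all 6 from Gapdh to Pkm, 5 and 2 were.

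Aldoa, the main aldolase, which cleaves fructose 1,6-bisphosphate, had a TPM of 1601, 1182 and 1367 in epidermal, 1479 and 1706 in dermal CCR6+, 1191 and 1085 in dermal Sca1+ and 771, 718 and 746 in subcutaneous libraries. It was higher than in subcutaneous ILCs by 0.73 ± 0.15 on the log2 scale in epidermal (edgeR adjusted p = 0.0063) and 1.06 ± 0.16 in dermal CCR6+ ILCs (adjusted p = 0.0037), and both calls were kept without any single library. Tpi1, which interconverts the 2 triose phosphates, had a TPM of 499.9, 358 and 458 in epidermal, 319.8 and 362 in dermal CCR6+, 229.7 and 211 in dermal Sca1+ and 192, 164 and 192 in subcutaneous libraries. Its epidermal and dermal CCR6+ libraries lay above all dermal Sca1+ and subcutaneous ones. Tpi1 was higher in epidermal ILCs than in subcutaneous ones by 1.1 ± 0.16 (edgeR adjusted p = 0.00099), a call kept without any single library. It was higher in epidermal than in dermal Sca1+ ILCs by 0.87 ± 0.19 (edgeR adjusted p = 0.013), but not without dermal Sca1+ 1 or 2 (adjusted p = 0.054 and 0.12). Aldoc, a second aldolase gene, supplied at most 2.99% of the summed TPM of Aldoa and Aldoc. Its TPM was 31.6, 24.2 and 17.7 in epidermal, 32.2 and 43.6 in dermal CCR6+, 15.2 and 23.0 in dermal Sca1+ and 23.7, 10.2 and 14.7 in subcutaneous libraries. Both dermal CCR6+ libraries were above all others. Aldoc was called higher in dermal CCR6+ than in subcutaneous cells (1.29 ± 0.33, edgeR adjusted p = 0.043), but not without dermal CCR6+ 1 or 2 (adjusted p = 0.091 and 0.26) or subcutaneous 2 or 3 (0.12 and 0.11).

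Pgk1, the first ATP-yielding step, had a TPM of 398, 275 and 381 in epidermal, 342 and 341 in dermal CCR6+, 243 and 228 in dermal Sca1+ and 139.9, 195 and 153 in subcutaneous libraries. Pgam1, the mutase that follows it, had 322, 241 and 296 in epidermal, 274 and 268 in dermal CCR6+, 154 and 139 in dermal Sca1+ and 136, 146 and 94.5 in subcutaneous libraries. For both genes epidermal and dermal CCR6+ libraries overlapped and were above the other 2 groups, and for Pgam1 the dermal Sca1+ libraries overlapped the subcutaneous ones. Epidermal ILCs were higher than subcutaneous ILCs by 0.93 ± 0.20 for Pgk1 (edgeR adjusted p = 0.009) and 1.02 ± 0.19 for Pgam1 (adjusted p = 0.0034), and both calls were kept without any single library. Pgam1 was also higher in epidermal than in dermal Sca1+ ILCs (0.85 ± 0.21, edgeR adjusted p = 0.028), but not without epidermal 3, dermal Sca1+ 1 or dermal Sca1+ 2 (adjusted p = 0.07, 0.09 and 0.17). Counts assigned to Pgk1-rs7 amounted to 4.83% of those of Pgk1, and those assigned to Pgam1-ps2 to 1.99% of those of Pgam1. Reads of such near-identical copies can be split with error, and adding them to the parent gene changed none of the counts of called members in the 6 comparisons.

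Gapdh, the oxidative step, Eno1, the ubiquitous enolase, and Pkm, pyruvate kinase, were called in 1 comparison only, dermal CCR6+ against subcutaneous ILCs. Gapdh TPM was 2908, 2087 and 2034 in epidermal, 3110.4 and 3517 in dermal CCR6+, 2437 and 2075 in dermal Sca1+ and 1783, 1687 and 1607 in subcutaneous libraries. Pkm TPM was 1207, 677 and 957 in epidermal, 1244 and 1579.8 in dermal CCR6+, 1061 and 941 in dermal Sca1+ and 577, 581 and 667 in subcutaneous libraries. Eno1 lay at 865 to 1523, 1256 and 1465, 902 and 1037, and 669.8 to 787 in the same order. Dermal CCR6+ ILCs exceeded subcutaneous ILCs by 0.93 ± 0.17 for Gapdh (edgeR adjusted p = 0.0088), 1.16 ± 0.21 for Pkm (adjusted p = 0.0088) and 0.82 ± 0.21 for Eno1 (adjusted p = 0.04). In that comparison Pgam1 (1.07 ± 0.20, edgeR adjusted p = 0.011), Pgk1 (1.02 ± 0.22, adjusted p = 0.02) and Tpi1 (0.86 ± 0.18, adjusted p = 0.016) were called too. Eno3, the muscle enolase, stayed at or under 9.92 TPM and was called nowhere.

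The dermal CCR6+ calls of the trunk depended on the number of libraries. Without dermal CCR6+ 2, Aldoa alone stayed called, with edgeR adjusted p-values of 0.15 for Tpi1, 0.085 for Gapdh, 0.11 for Pgk1, 0.07 for Pgam1, 0.25 for Eno1 and 0.093 for Pkm. Without dermal CCR6+ 1, Aldoa, Gapdh and Pkm stayed called, and the adjusted p was 0.055 for Tpi1, 0.086 for Pgk1, 0.059 for Pgam1 and 0.091 for Eno1. Eno1 was also lost without subcutaneous 1, 2 or 3 (adjusted p = 0.1, 0.081 and 0.065), Tpi1 without subcutaneous 2 (0.058) and Pgk1 without subcutaneous 3 (0.061). The 4 epidermal trunk calls against subcutaneous ILCs were kept in every alternative run, and without epidermal 1, the library with the highest trunk sum, their log2 fold changes were 1.12 for Tpi1, 1.06 for Pgam1, 0.96 for Pgk1 and 0.74 for Aldoa.

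**Figure D3:**
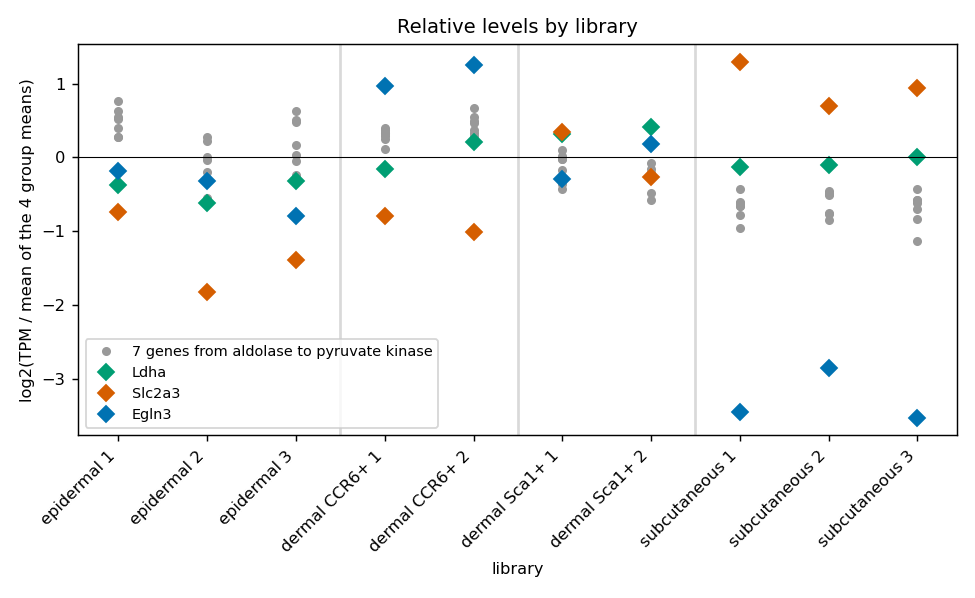
Each point is the TPM of a gene in 1 library (horizontal axis) over the mean of that gene's 4 group means, on a log2 scale (vertical axis). Grey circles are the 7 trunk genes and diamonds are Ldha, Slc2a3 and Egln3; the trunk genes and Egln3 are below 0 in all 3 subcutaneous libraries, where Slc2a3 is above 0 and Ldha is near 0.

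Ldha, the lactate dehydrogenase subunit that favours lactate formation, did not follow the trunk. Its TPM was 2359, 2002 and 2449.7 in epidermal, 2764 and 3537 in dermal CCR6+, 3827 and 4079 in dermal Sca1+ and 2817, 2848 and 3077 in subcutaneous libraries. Both dermal Sca1+ libraries were above all others and all epidermal libraries were below all others. Epidermal ILCs were lower than dermal Sca1+ ILCs by -0.90 ± 0.18 (edgeR adjusted p = 0.01), a call lost without dermal Sca1+ 1 or 2 (adjusted p = 0.063 and 0.079). Against subcutaneous ILCs the epidermal value was -0.52 ± 0.17 (edgeR adjusted p = 0.049), which was past the threshold only just and was lost on leaving out epidermal 1, 2 or 3 (adjusted p = 0.12, 0.12 and 0.074) or subcutaneous 2 or 3 (0.12 and 0.15). The ratio of Ldha to Pkm TPM was 1.96 to 2.96 in epidermal, 2.22 and 2.24 in dermal CCR6+, 3.61 and 4.33 in dermal Sca1+ and 4.61 to 4.9 in subcutaneous libraries. Epidermal and dermal CCR6+ ratios overlapped, and both dermal Sca1+ and subcutaneous libraries were above all of them.

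Ldhb, the subunit associated with lactate oxidation, supplied at most 2.06% of the summed TPM of Ldha and Ldhb. Its TPM was 16.4, 23.6 and 31.2 in epidermal, 58.0 and 72.7 in dermal CCR6+, 56.3 and 70.2 in dermal Sca1+ and 31.8, 46.1 and 36.9 in subcutaneous libraries. Every epidermal library was below every other one. Epidermal ILCs were lower than dermal CCR6+ ILCs by -1.53 ± 0.34 (edgeR adjusted p = 0.025) and lower than dermal Sca1+ ILCs by -1.47 ± 0.35 (adjusted p = 0.021). The first call was lost without epidermal 2, dermal CCR6+ 1 or dermal CCR6+ 2 (adjusted p = 0.059, 0.08 and 0.13) and the second without dermal Sca1+ 1 or 2 (0.072 and 0.11).

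Of the 2 monocarboxylate transporters, Slc16a1 (MCT1), which can carry lactate in either direction, had its lowest mean in epidermal ILCs. Its TPM was 14.7, 6.99 and 10.3 in epidermal, 29.7 and 46.6 in dermal CCR6+, 42.6 and 28.8 in dermal Sca1+ and 15.7, 19.6 and 11.8 in subcutaneous libraries. The dermal libraries were above all others, and epidermal and subcutaneous ones overlapped. Epidermal ILCs were lower than dermal CCR6+ ILCs by -1.99 ± 0.32 (edgeR adjusted p = 0.0044) and lower than dermal Sca1+ ILCs by -1.90 ± 0.32 (adjusted p = 0.0036), and both calls were kept in every alternative. In dermal CCR6+ ILCs Slc16a1 was above subcutaneous ILCs too (1.23 ± 0.32, edgeR adjusted p = 0.045), but not without dermal CCR6+ 1 or 2 (adjusted p = 0.051 and 0.34) or subcutaneous 1 or 3 (0.13 for either). Slc16a3 (MCT4), the transporter linked to lactate export, was called in no comparison, with TPM of 18.8 to 36.8 in epidermal, 15.0 and 38.4 in dermal CCR6+, 11.9 and 29.7 in dermal Sca1+ and 11.4 to 24.9 in subcutaneous libraries. As a share of the summed TPM of the 2 transporters, Slc16a3 made up 69.3% to 78.1% in epidermal libraries and 29.2% to 61.3% in the other 7.

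Of the flux regulators, Pfkfb3, a kinase whose product activates phosphofructokinase and so speeds glycolysis, had a TPM of 12.3, 6.8 and 9.09 in epidermal, 13.5 and 11.8 in dermal CCR6+, 17.4 and 20.6 in dermal Sca1+ and 33.3, 21.8 and 20.2 in subcutaneous libraries. Epidermal and dermal CCR6+ libraries were below all dermal Sca1+ and subcutaneous ones. Pfkfb3 was lower in epidermal ILCs than in subcutaneous ones by -1.37 ± 0.31 (edgeR adjusted p = 0.012), and the call was kept in every alternative. Pdk1, a kinase that inhibits pyruvate dehydrogenase in the mitochondrion and so slows the conversion of pyruvate to acetyl-CoA, had a TPM of 13.9 to 19.3 in epidermal, 15.7 and 17.3 in dermal CCR6+, 19.4 and 25.9 in dermal Sca1+ and 22.2 to 34.3 in subcutaneous libraries. Dermal CCR6+ and epidermal libraries overlapped, as did dermal Sca1+ and subcutaneous ones. Dermal CCR6+ ILCs were lower than subcutaneous ILCs by -1.12 ± 0.29 (edgeR adjusted p = 0.046), and this call ended on leaving out any 1 of the 5 libraries (adjusted p from 0.055 without subcutaneous 1 to 0.29 without dermal CCR6+ 2, with 0.11 without dermal CCR6+ 1 and subcutaneous 2 and 0.12 without subcutaneous 3). Pfkfb4, a related kinase, was at most 4.22 TPM in any library and was not called.

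Among the oxygen sensing genes, the largest differences were those of Egln3 (PHD3), a prolyl hydroxylase that is itself a HIF target. Its TPM was 41.4, 37.9 and 27.1 in epidermal, 91.9 and 113 in dermal CCR6+, 38.4 and 53.3 in dermal Sca1+ and 4.31, 6.53 and 4.09 in subcutaneous libraries. Both dermal CCR6+ libraries were above all others, epidermal and dermal Sca1+ libraries overlapped, and all subcutaneous libraries were below all others. Against subcutaneous ILCs, Egln3 was 6.3-fold higher in epidermal (log2 2.66 ± 0.27, edgeR adjusted p = 9.8e-05), 8.76-fold higher in dermal Sca1+ (3.13 ± 0.29, adjusted p = 0.00071) and 19.74-fold higher in dermal CCR6+ ILCs (4.30 ± 0.30, adjusted p = 5.9e-05). It was lower in epidermal than in dermal CCR6+ ILCs by -1.65 ± 0.28 (edgeR adjusted p = 0.0057). These 4 calls were kept in every alternative, and without epidermal 1 the value against subcutaneous ILCs was 2.67. Between the dermal populations the log2 difference was 1.17 ± 0.32, which was not past the threshold (edgeR adjusted p = 0.18).

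Egln1 (PHD2), the main oxygen sensor of the family, was called in no comparison, at 36.9 to 65.5 TPM in epidermal, 48.3 and 51.1 in dermal CCR6+, 31.3 and 34.7 in dermal Sca1+ and 30.6 to 45.1 in subcutaneous libraries. Egln3 made up 8.32% to 16.0% of the summed TPM of the 2 hydroxylases in subcutaneous libraries, 37.1% to 50.6% in epidermal, 52.6% and 63.0% in dermal Sca1+ and 64.3% and 70.0% in dermal CCR6+ libraries. No 2 groups overlapped in this share. Hif1a, the regulated HIF subunit, had a TPM of 81.7, 44.3 and 49.0 in epidermal, 118 and 131 in dermal CCR6+, 91.1 and 127 in dermal Sca1+ and 123, 104 and 79.5 in subcutaneous libraries. Epidermal 2 and 3 were below all other libraries, and epidermal 1 lay within the subcutaneous range. Hif1a was lower in epidermal ILCs than in subcutaneous (-1.01 ± 0.23, edgeR adjusted p = 0.011), dermal CCR6+ (-1.22 ± 0.25, adjusted p = 0.015) and dermal Sca1+ ILCs (-1.04 ± 0.25, adjusted p = 0.022). The first of these was kept in every alternative and was -1.24 without epidermal 1. The second was lost without epidermal 3, dermal CCR6+ 1 or dermal CCR6+ 2 (adjusted p = 0.051, 0.061 and 0.082), and the third without epidermal 2 or 3 or dermal Sca1+ 1 or 2 (0.057, 0.07, 0.067 and 0.14). These are transcript levels, and HIF-1α is regulated mainly through its protein, which was not measured.

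Of the 6 further HIF targets, 1 was called higher in epidermal than in subcutaneous ILCs, where 6.87% of all genes were. In epidermal against dermal CCR6+ ILCs 1 was called lower, where 5.19% were. Such counts are no result about the 6 genes. Bnip3, a mitophagy receptor, had a TPM of 53.9, 51.3 and 62.2 in epidermal, 30.3 and 43.2 in dermal CCR6+, 23.9 and 32.4 in dermal Sca1+ and 30.6, 18.3 and 16.7 in subcutaneous libraries. All epidermal libraries were above all others. Bnip3 was higher in epidermal ILCs than in subcutaneous ones by 1.25 ± 0.26 (edgeR adjusted p = 0.007), a call kept in every alternative. Mxi1, a MAX-binding repressor that counters MYC, had a TPM of 17.7, 8.43 and 12.6 in epidermal, 27.7 and 31.3 in dermal CCR6+, 26.5 and 18.5 in dermal Sca1+ and 24.1, 16.0 and 10.97 in subcutaneous libraries. Both dermal CCR6+ libraries were above all others, and epidermal and subcutaneous libraries overlapped. Epidermal ILCs were lower than dermal CCR6+ ILCs by -1.35 ± 0.31 (edgeR adjusted p = 0.028), and lost without epidermal 2 or 3 or dermal CCR6+ 1 or 2 (adjusted p = 0.076, 0.067, 0.091 and 0.13).

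The other 4 targets were not called in any comparison. Vegfa, the angiogenic growth factor, ranged from 6.31 to 35.1 TPM in epidermal, 27.4 and 31.2 in dermal CCR6+, 15.0 and 19.8 in dermal Sca1+ and 16.8 to 53.7 in subcutaneous libraries, and of the 3 epidermal values 35.1 was that of epidermal 1, the other two being 6.31 and 9.3. P4ha1, a collagen prolyl hydroxylase subunit, lay at 29.0 to 64.7, 39.4 and 52.5, 27.4 and 36.1, and 18.5 to 33.1 TPM in the same order of groups. Ddit4, an inhibitor of mTORC1 signalling, lay between 3.12 and 20.02 TPM in epidermal and between 8.56 and 13.7 TPM in all other libraries. Ankrd37, an ankyrin repeat protein, lay between 6.2 and 29.8 TPM over all 10 libraries.

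**Figure D4:**
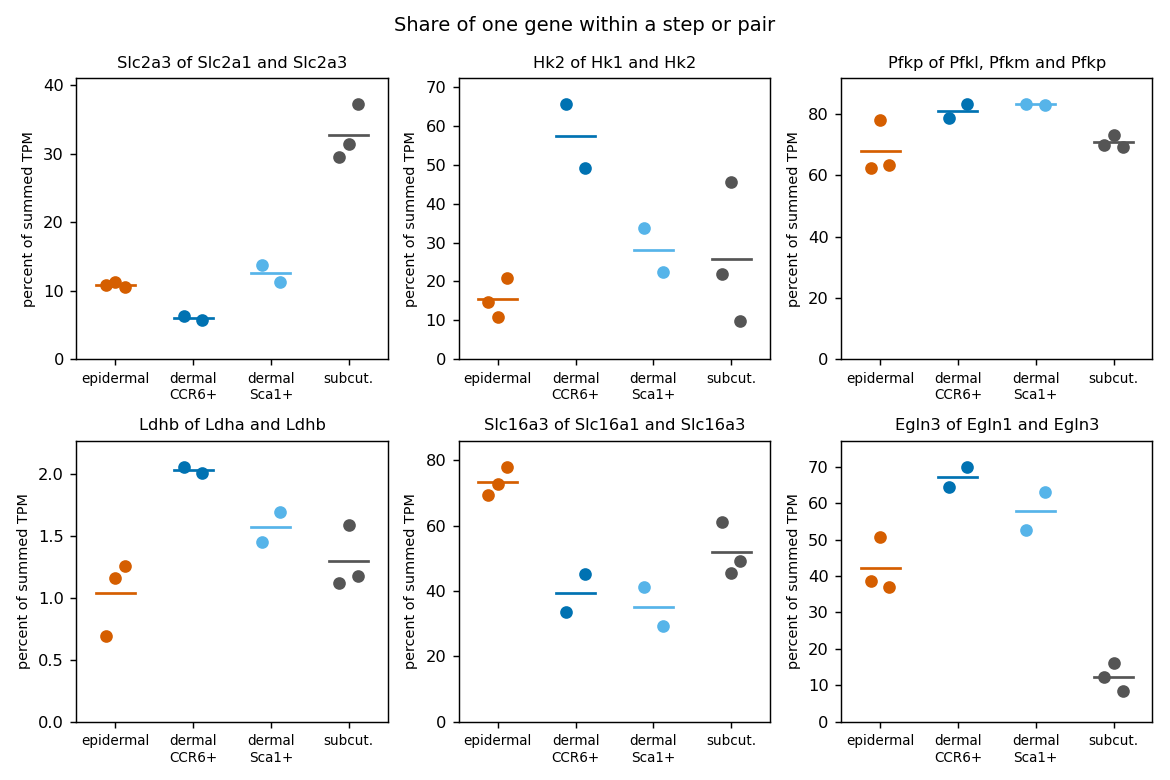
Share of 1 gene in the summed TPM of the named genes (vertical axis, percent, from 0), by group (horizontal axis), with 1 point per library and a bar at the group mean. The subcutaneous points stand apart for Slc2a3 (29.6% to 37.3%) and Egln3 (8.32% to 16.0%), the epidermal points for Slc16a3 (69.3% to 78.1%) and the dermal CCR6+ points for Hk2 (49.1% and 65.7%). For Slc2a3 and Egln3 none of the groups overlap.

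The list of other genes of glucose and pyruvate metabolism held 25 tested genes. Of these, 3 were called higher and 3 lower in epidermal than in subcutaneous ILCs, where 6.87% and 13.3% of all genes were, with a median log2 fold change of 0.09 beside -0.02 for all genes. The lower count is near the share of all genes, and with so few genes neither count is a result about the list. The other counts, higher then lower, were 0 and 2 for epidermal against dermal CCR6+ (0.987% and 5.19% of all genes), 2 and 3 for epidermal against dermal Sca1+ (2.75% and 8.66%), 2 and 0 for dermal CCR6+ against subcutaneous (3.75% and 3.71%) and 2 and 0 for dermal Sca1+ against subcutaneous ILCs (1.21% and 0.993%), and with so few genes none of these is read as a result about the list. None was called between the dermal populations, where 3 were higher and 0 lower at an unadjusted p under 0.05. DESeq2 called 2 higher there, among 260 of all 16208 genes. Higher in epidermal ILCs than in subcutaneous ones were the sugar phosphatase gene Tigar (2.41 ± 0.72, edgeR adjusted p = 0.04), the transporter gene Slc2a6 (1.29 ± 0.37, adjusted p = 0.032) and the pyruvate dehydrogenase kinase gene Pdk3 (0.98 ± 0.22, adjusted p = 0.01). Of these Pdk3 alone was kept in every alternative. Tigar was lost without epidermal 1 or 3 or subcutaneous 1 or 2 (adjusted p = 0.084, 0.14, 0.12 and 0.11), and Slc2a6 without epidermal 1 or 3 or subcutaneous 1 or 3 (0.066, 0.08, 0.097 and 0.099).

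Pdk4, another pyruvate dehydrogenase kinase, was listed at 0 TPM in all epidermal libraries, at 1.84 and 0 in dermal CCR6+, at 3.66 and 2.38 in dermal Sca1+ and at 3.84 to 4.58 in subcutaneous ones. It was lower in epidermal than in subcutaneous (edgeR adjusted p = 0.0094) and in dermal Sca1+ ILCs (adjusted p = 0.019, but 0.052 without dermal Sca1+ 1). Hk3, a hexokinase of myeloid cells, was listed at 0 in epidermal and at 5.28 to 13.8 TPM in subcutaneous libraries (edgeR adjusted p = 0.021, but 0.051, 0.055 and 0.055 without epidermal 2, epidermal 3 or subcutaneous 2), beside a macrophage and dendritic cell marker sum of 4057 to 7578 there, whose part was not tested. Slc16a7 (MCT2), a further monocarboxylate transporter, was at most 0.08 TPM in epidermal, 2.21 and 0.28 in dermal CCR6+, 3.67 and 1.27 in dermal Sca1+ and 2.48 to 5.98 in subcutaneous libraries. It was lower in epidermal than in subcutaneous (edgeR adjusted p = 0.0031), dermal Sca1+ (adjusted p = 0.011, or 0.059 with a replicate block) and dermal CCR6+ ILCs (adjusted p = 0.039, but 0.082, 0.057, 0.13 and 0.3 without epidermal 1, 2 or 3 or dermal CCR6+ 1). The log2 fold change against dermal CCR6+ ILCs went from -4.98 to -2.80 without dermal CCR6+ 1 and to -0.97 with limma on log2(TPM + 1), where the adjusted p was 0.32.

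Pdp1, the phosphatase that reactivates pyruvate dehydrogenase, had a TPM of 23.7, 16.9 and 13.2 in epidermal, 52.1 and 33.1 in dermal CCR6+, 38.9 and 39.4 in dermal Sca1+ and 12.4, 9.91 and 10.5 in subcutaneous libraries. The 4 dermal libraries were above all others. Against subcutaneous ILCs it was higher in dermal CCR6+ (1.80 ± 0.28, edgeR adjusted p = 0.0039) and in dermal Sca1+ ILCs (1.73 ± 0.28, adjusted p = 0.011, but 0.058 and 0.061 without dermal Sca1+ 1 or 2). Epidermal ILCs were lower than dermal CCR6+ (-1.22 ± 0.28, edgeR adjusted p = 0.027, but 0.091 and 0.29 without epidermal 3 or dermal CCR6+ 1) and dermal Sca1+ ILCs (-1.15 ± 0.28, adjusted p = 0.024, but 0.084, 0.089 and 0.12 without epidermal 3, dermal Sca1+ 1 or dermal Sca1+ 2). Pdk3 was also called in dermal CCR6+ against subcutaneous ILCs (1.22 ± 0.24, edgeR adjusted p = 0.013, but 0.12 without dermal CCR6+ 2). Slc2a6 was higher in epidermal than in dermal Sca1+ ILCs (1.61 ± 0.43, edgeR adjusted p = 0.036), a call that ended on leaving out any 1 of these 5 libraries (adjusted p = 0.066, 0.054 and 0.082 for epidermal 1, 2 and 3 and 0.17 and 0.12 for dermal Sca1+ 1 and 2). The D-lactate dehydrogenase gene Ldhd was higher in epidermal than in dermal Sca1+ ILCs (2.68 ± 0.57, edgeR adjusted p = 0.012, but 0.058 and 0.074 without dermal Sca1+ 1 or 2). Bpgm, the bisphosphoglycerate mutase gene, was higher in dermal Sca1+ than in subcutaneous ILCs (1.17 ± 0.26, edgeR adjusted p = 0.046, but 0.28 and 0.11 without dermal Sca1+ 1 or 2 and 0.091, 0.13 and 0.13 without subcutaneous 1, 2 or 3).

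The list of other hypoxia-related genes held 43 tested genes, of which 6 were called higher and 16 lower in epidermal than in subcutaneous ILCs, where 6.87% and 13.3% of all genes were, with a median log2 fold change of -0.60 beside -0.02. The counts, higher then lower, were 0 and 6 for epidermal against dermal CCR6+ (0.987% and 5.19% of all genes, medians -0.74 and 0.00) and 2 and 13 for epidermal against dermal Sca1+ (2.75% and 8.66%, medians -0.65 and 0.00). They were 4 and 4 for dermal CCR6+ against subcutaneous (3.75% and 3.71%), 1 and 1 for dermal Sca1+ against subcutaneous (1.21% and 0.993%) and 1 and 0 for dermal CCR6+ against dermal Sca1+ ILCs (0.296% and 0.346%). Counts of 1 or 2 are too small to be a result about the list. Arnt2, a partner of HIF subunits, had a TPM of 34.7, 11.8 and 11.8 in epidermal, 16.2 and 17.3 in dermal CCR6+, 2.63 and 1.61 in dermal Sca1+ and 0.56, 2.27 and 1.12 in subcutaneous libraries. Epidermal and dermal CCR6+ libraries were above all others. Arnt2 was higher than in subcutaneous ILCs in epidermal (3.62 ± 0.60, edgeR adjusted p = 0.0019) and dermal CCR6+ ILCs (3.42 ± 0.62, adjusted p = 0.0088), and higher in epidermal than in dermal Sca1+ ILCs (4.81 ± 0.77, adjusted p = 0.0025), all kept in every alternative. It was also called between the dermal populations (4.6 ± 0.78, edgeR adjusted p = 0.028), but not without dermal CCR6+ 1 or 2 (adjusted p = 0.052 and 0.083) or dermal Sca1+ 1 or 2 (0.13 and 0.18). The value was smaller with limma on TPM, at 2.53 with a pseudocount of 1 and 2.97 with 0.1 (adjusted p = 0.068 and 0.1).

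Mif, an inflammatory cytokine, had a TPM of 1139, 1263 and 1244 in epidermal, 898 and 1017 in dermal CCR6+, 733 and 705 in dermal Sca1+ and 499, 488 and 462 in subcutaneous libraries, with no overlap between any 2 groups. It was higher in epidermal ILCs than in subcutaneous ones (1.22 ± 0.19, edgeR adjusted p = 0.0012), as was Fam162a, a mitochondrial protein (1.27 ± 0.26, adjusted p = 0.0065), both kept in every alternative. Fam162a was also called in epidermal against dermal Sca1+ ILCs (1.03 ± 0.30), at the threshold itself (edgeR adjusted p = 0.05 after rounding) and not without epidermal 2 or 3 or dermal Sca1+ 1 or 2 (adjusted p = 0.13, 0.11, 0.22 and 0.16). Cited2, a transcriptional cofactor that competes with HIF, was higher than in subcutaneous ILCs in dermal CCR6+ (2.04 ± 0.23, edgeR adjusted p = 0.00076) and dermal Sca1+ ILCs (1.48 ± 0.23, adjusted p = 0.0089, but 0.059 and 0.06 without dermal Sca1+ 1 or 2). Ero1l, an oxidase of the endoplasmic reticulum, was higher in dermal CCR6+ ILCs than in subcutaneous ones (1.48 ± 0.26, edgeR adjusted p = 0.0068, but 0.074 without dermal CCR6+ 2).

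Among the called genes of the hypoxia list, those with the largest fitted downward differences in epidermal ILCs against subcutaneous and against dermal Sca1+ ILCs were Bhlhe41, a transcriptional repressor, Lox, a collagen cross-linking enzyme, and Pgf, a vascular growth factor. All were listed at 0 TPM in the epidermal libraries, so that their rank rests on fitted values, and at 0.86 to 7.19, 2.36 to 5.31 and 0.9 to 5.79 TPM in subcutaneous ones (edgeR adjusted p = 0.0024, 0.01 and 0.026). The Pgf call was lost without epidermal 1, 2 or 3 or subcutaneous 2 or 3 (adjusted p = 0.055, 0.059, 0.066, 0.053 and 0.065). In dermal Sca1+ libraries the levels were 1.29 and 0.37, 0.53 and 2.24, and 3.42 and 2.72 TPM (edgeR adjusted p = 0.01, 0.029 and 0.044). On the log2(TPM + 1) scale limma gave -0.82 for Bhlhe41 (adjusted p = 0.33) and -1.15 for Lox (adjusted p = 0.11) against dermal Sca1+ ILCs, and with a pseudocount of 0.1 it gave -3.01 for Bhlhe41 (adjusted p = 0.066), so that these calls were lost too. In the edgeR test the Lox call was lost without epidermal 1, 2 or 3 or dermal Sca1+ 2 (adjusted p = 0.059, 0.065, 0.072 and 0.093) and the Pgf call without any 1 of the 5 libraries (0.084, 0.09 and 0.1 for epidermal 1, 2 and 3, 0.1 and 0.085 for dermal Sca1+ 1 and 2). The fibroblast marker sum was at most 17.1 TPM in epidermal libraries, 1330 and 2036 in dermal Sca1+ and 1307 to 1979 in subcutaneous ones, and its part in the Lox and Pgf differences was not tested.

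Against dermal CCR6+ ILCs, epidermal ILCs were lower in Ndrg1, a stress-induced gene (-2.21 ± 0.30, edgeR adjusted p = 0.0016, kept in every alternative), and in Epas1, which encodes HIF-2α (-3.30 ± 0.71, adjusted p = 0.021, but 0.061 and 0.26 without epidermal 3 or dermal CCR6+ 1). Epas1 TPM was 8.27 in dermal CCR6+ 1 and 1.55 in dermal CCR6+ 2, and its log2 fold change was -1.60 without dermal CCR6+ 1 and -1.69 with limma on log2(TPM + 1), where the adjusted p was 0.088. Endothelial markers (8 genes) summed to 2.4 to 8.0 TPM in epidermal libraries, with Cdh5, Plvap, Kdr and Cldn5 at 0. They summed to 219 and 105 in dermal CCR6+ 1 and 2, with none at 0. Their part in the Epas1 difference was not tested. Dermal CCR6+ ILCs were lower than subcutaneous ILCs in Stc2, a secreted glycoprotein (-5.51 ± 1.14, edgeR adjusted p = 0.016, but 0.12 without dermal CCR6+ 2), and in Hmox1, heme oxygenase 1 (-4.04 ± 0.64, adjusted p = 0.0045, but 0.056 without dermal CCR6+ 2). Hmox1 was also lower in dermal Sca1+ than in subcutaneous ILCs (-2.82 ± 0.60, edgeR adjusted p = 0.04), a call that ended on leaving out any 1 of the 5 libraries. The adjusted p was 0.087, 0.11 and 0.066 without subcutaneous 1, 2 and 3. Without dermal Sca1+ 1 or 2 the log2 fold change was -2.96 or -2.72. The macrophage and dendritic cell marker sum was highest in subcutaneous libraries, and its part in the Hmox1 differences was not tested.

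Hilpda, a HIF target that coats lipid droplets and restrains lipolysis, was singled out after its values were seen, because it was abundant and, unlike Egln3, had its highest mean in subcutaneous ILCs. Its TPM was 318, 144 and 189 in epidermal, 700.03 and 930.2 in dermal CCR6+, 1701 and 2475 in dermal Sca1+ and 3935, 3175 and 3507 in subcutaneous libraries, with no overlap between any 2 groups. It was lower in epidermal ILCs than in subcutaneous ones by -4.22 ± 0.25 (edgeR adjusted p = 5.4e-06), lower than in dermal Sca1+ ILCs by -3.39 ± 0.25 (adjusted p = 3e-05) and lower than in dermal CCR6+ ILCs by -2.07 ± 0.24 (adjusted p = 0.00073). It was also lower in dermal CCR6+ than in subcutaneous ILCs by -2.15 ± 0.27 (edgeR adjusted p = 0.0011). These 4 calls were kept in every alternative. The differences between the dermal populations (-1.33 ± 0.27, edgeR adjusted p = 0.073) and between dermal Sca1+ and subcutaneous ILCs (-0.83 ± 0.25, adjusted p = 0.14) were not past the threshold. The macrophage and dendritic cell marker sum was also lowest in epidermal and highest in subcutaneous libraries, from at most 6.26 TPM in epidermal to at least 4057 TPM in subcutaneous libraries, and its part in the Hilpda differences was not tested. Of the 7 adipocyte markers, Cfd was at 5.05 to 28.7 TPM in subcutaneous libraries and at 0 in all others. Adipoq was at most 3.9 TPM, Plin1 at most 2.16, Plin4 at most 1.0 and Cidec at most 0.05 in any library, and Lep was at 0 in all. Fabp4, which endothelial cells express too, made up nearly all of the summed level of that list in dermal and subcutaneous libraries, at 0 to 0.3 TPM in epidermal, 237 and 90.2 in dermal CCR6+, 314 and 313 in dermal Sca1+ and 256 to 689 in subcutaneous libraries. The part of adipocyte RNA in the Hilpda differences was not tested.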

How the data were processed

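Per the labels' protocols, full-length cDNA of the sorted ILCs was amplified with a kit for small RNA amounts and turned into libraries with Nextera XT. No step marks strand, so overlapping and antisense genes cannot be separated. Trimmomatic, STAR, RSEM and the mm10 build are named in the submitters' processing notes; their versions and settings were not stated there. The expected counts were deposited by the authors as RSEM's estimates of reads per gene, of which 7.2% to 8.39% were not whole. TPM values were deposited too and are RSEM's length-corrected abundances, per the file headers.

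Expected counts were rounded, genes were kept by filterByExpr with a count minimum of 10 (16208 genes), and 1 model with 4 groups was fitted to all 10 libraries by edgeR 4.0.16 (R 4.3.3) with TMM and the two-sided quasi-likelihood test, Benjamini-Hochberg adjusted over all genes in each of 6 comparisons. The biological coefficient of variation was 0.62. SE is the absolute log2 fold change over the square root of F. The steps were tested on simulated data. Gene IDs were matched to GENCODE M21, and 47224 of 47643 had a symbol. Replicates of every group differed by more than counting noise (smallest chi-square over degrees of freedom, 39.8). DESeq2 1.42.0 and limma 3.58.1 served as alternatives, beside other filters, scalings, replicate blocks and left-out libraries. Members and lists were chosen with earlier results of these data known. Values in every library are given for members called in at least 1 of the 4 main comparisons (all but epidermal against dermal Sca1+ and dermal CCR6+ against subcutaneous), and for some others; of the 2 lists of other genes, the 3 largest called changes per direction and comparison are named, with Hilpda shown in full. The series design speaks of triplicates, and 2 libraries were analysed for either dermal population. The proteins of these genes were not analysed here.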

Additional observations from a re-analysis of the deposited data

How the results depend on the processing

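Of the 40 calls of single members, 15 were kept in every alternative, 25 were lost on leaving out a library, 13 of the calls were also lost in another setting, and 0 changed direction. DESeq2 called 7 members lower in epidermal ILCs than in subcutaneous ones (4 by edgeR), among 2739 of 16208 genes (2155). It called 4 higher in dermal CCR6+ than in dermal Sca1+ ILCs (0), among 260 genes (48). In dermal Sca1+ against subcutaneous ILCs it called 5 higher (1), among 484 genes (196). With no filter beyond 1 count these last 2 member counts were 2 and 3, among 264 and 523 of 25793 genes. In that setting 4 members were lower in dermal CCR6+ than in subcutaneous ILCs (2), among 1357 genes (601). A filter of 5 CPM in 2 libraries, limma on log2(TPM + 1) and limma on log2(TPM + 0.1) each called 2 members higher in dermal Sca1+ than in subcutaneous ILCs. The last called 1 lower in dermal CCR6+ than in subcutaneous ILCs. Of all genes, these 3 settings called 229 of 12137, 356 of 16208 and 315 of 16208 in the first case. In the second case 1010 genes were called. With limma on TPM the median of all genes between epidermal and subcutaneous ILCs moved from -0.02 to 0.11 (pseudocount 0.1), and 47.9% of called genes were higher in epidermal ILCs with a pseudocount of 1, against 34.1% with edgeR. Leaving out 1 library gave 2 to 10 members higher and 0 to 2 lower in dermal CCR6+ than in subcutaneous ILCs, 2 to 10 lower and 0 to 1 higher in epidermal than in dermal CCR6+ ILCs, 1 to 6 lower and 0 to 2 higher in epidermal than in dermal Sca1+ ILCs, 6 to 7 higher and 3 to 5 lower in epidermal ILCs than in subcutaneous ones, and 0 to 1 lower in dermal CCR6+ than in dermal Sca1+ ILCs. Without 1 epidermal or subcutaneous library, 698 to 1065 of all genes were higher in epidermal than in subcutaneous ILCs and 1582 to 1983 lower. Leaving out a dermal library leaves that group with 1 library, which is assumed to vary like the others. Member calls lost with limma on TPM were those of Ldha (epidermal with subcutaneous), Pfkp and Mxi1 (epidermal with dermal CCR6+), Slc2a3 and Hif1a (epidermal with dermal Sca1+) and Aldoc, Slc16a1 and Pdk1 (dermal CCR6+ with subcutaneous), at adjusted p-values of 0.051 to 0.11. Whether same-numbered libraries share a mouse or a day is not stated. Their deviations from the group mean correlated at -0.04 to 0.11. That cannot decide it, since in a group of 2 libraries the deviations mirror each other. With the replicate block by title number, 5 members were lower in epidermal than in dermal CCR6+ ILCs (8 without it), 1 was higher in epidermal than in dermal Sca1+ ILCs (2), and 1 was lower in dermal CCR6+ than in subcutaneous ILCs (2), as also with the block by runs of deposited numbers. Of all genes, the block by title number called 596 (841 without it), 252 (445) and 450 (601) in these 3 cases. The other member counts stayed within 1.5 times. Of 71 calls among the other pathway genes, 35 were kept in every alternative. Precision is limited by 2 or 3 libraries per group. For Pfkm, Eno3 and Pfkfb4, which were under 10 TPM in every library, SEs were 1.04 to 1.88 on the log2 scale.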
